A study of Mus musculus with 12 samples.

Results

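The peaks described here are places on RNA where Argonaute 2 (Ago2) of mouse forebrain held 1 of 6 mature microRNAs (miRNAs) of 3 neuronal families: miR-132-3p, miR-132-5p, miR-212-3p and miR-212-5p (the miR-132/miR-212 family), miR-137-3p, and miR-218-5p. They were chosen by the name of the small RNA alone, in all 4 deposited peak lists, and peaks annotated to mitochondrial rRNA or to Gm42418 were left out. This gave 5523 peaks of 245769 in all lists together: 1748 of the miR-132/miR-212 family, 1854 of miR-137 and 1921 of miR-218. Each family is described apart.

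The study ligated small RNAs to their target RNAs inside immunoprecipitated Ago2 complexes of ultraviolet cross-linked tissue, so that 1 chimeric read names both the small RNA and the place it was bound. All 12 libraries came from forebrain of C57BL/6 mice harvested at 10 to 12 weeks of age. The labels give every sample the same line and treatment: Camk2a-Cre/ERT2 mice crossed to ROSA26 CAG-GFP/Eif2c2 (tAgo2) mice, with 2 mg tamoxifen on each of 5 days and 14 to 21 days of induction. In this line tamoxifen switches on tagged Ago2 in cells that express the Camk2a promoter, mainly excitatory neurons. The sources used here do not say if mice used for anti-Ago2 and for IgG had the tagged Ago2. Anti-Ago2 (2D4) libraries were pooled before peak calling into a list of replicates 1-4 (4 libraries) and a list of replicates 5-7 (3 libraries). Anti-myc (9B11) libraries, which take the tagged Ago2, gave the excitatory list (3 libraries), and the control IgG1 list pooled 2 libraries.

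Each list is therefore 1 pooled observation with no replicate values. The tests below compare lists, or small RNAs within a list, not mice. Their p-values and intervals cover counting error of peaks only and not the spread between mice. They treat peaks as independent, though peaks of 1 gene need not be. The sources used here mention no molecular identifier in the chimeric reads, so duplicate reads could add error that is not covered. After the exclusions the lists held 242044 peaks (replicates 1-4), 3020 (replicates 5-7), 704 (excitatory) and 1 (IgG). Sequencing depth was stated only as a range over the samples, 61 to 138 M reads. The replicates 1-4 list had peaks on 5 of 5 excitatory neuron marker genes, on 6 of 6 for astrocytes and on 6 of 6 for inhibitory neurons. The excitatory list had peaks on 1 of 5 excitatory markers (Camk2a, 14 peaks) and on none of 6 astrocyte and none of 6 inhibitory neuron markers. It had peaks on 1 of 6 oligodendrocyte lineage genes.

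A miRNA guides Ago2 to an RNA mainly through its seed, the bases from position 2 to position 8, and pairing in a 3′ UTR usually lowers the stability and translation of the mRNA. The miR-132/miR-212 cluster is transcribed in response to neuronal activity through CREB and is known for effects on dendrites and synapses. miR-137 is a brain-enriched miRNA known for its part in neuronal differentiation and synaptic vesicle release, and its locus is associated with schizophrenia. miR-218 lies in introns of the axon guidance genes Slit2 and Slit3 and is known from motor neurons and from forebrain excitatory neurons.

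The mature sequences, from RefSeq (GRCm38.p6), are shown 5′ to 3′ with the seed in capitals, because members with the same seed can pair with the same site through it. Of the 708 small RNA names in the replicates 1-4 list, 562 matched a sequence in that table.
miR-132-3p (chr11:75173723-75173744, plus strand): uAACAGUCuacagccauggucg
miR-212-3p (chr11:75173443-75173464, plus strand): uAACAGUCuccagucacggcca
miR-132-5p (chr11:75173686-75173707, plus strand): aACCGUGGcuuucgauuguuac
miR-212-5p (chr11:75173403-75173425, plus strand): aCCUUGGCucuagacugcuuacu
miR-137-3p (chr3:118433901-118433923, plus strand): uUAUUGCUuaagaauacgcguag
miR-218-5p (chr5:48223966-48223986 in Slit2 and chr11:35616840-35616860 in Slit3): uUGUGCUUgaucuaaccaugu

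miR-132-3p and miR-212-3p had the same seed, the same first 9 bases, and the same base at 17 of 22 positions. The other members had seeds of their own, so within the miR-132/miR-212 family only the 3p arms could read the same site through the seed.

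In replicates 1-4 the 3 families were of similar size. miR-218-5p had 1899 peaks (0.785% of the list, 95% Wilson interval 0.750 to 0.821), which ranked 22nd among small RNAs by number of peaks. miR-137-3p had 1830 (0.756%, 0.722 to 0.791, rank 23) and miR-132-3p had 1534 (0.634%, 0.603 to 0.666, rank 28). The other members of the miR-132/miR-212 family were rarer: 94 peaks of miR-212-3p, 78 of miR-132-5p and 19 of miR-212-5p. Peak scores, whose definition is not given in the sources used here, started at 3 for each member, the number of reads the calling required, and had a median of 4 for miR-132-3p, miR-137-3p and miR-218-5p. The highest scores of miR-137-3p and miR-218-5p were 213 and 186. Most peaks of each of these miRNAs thus stood at or close to the calling minimum.

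The smaller lists held few members. In replicates 5-7 there were 17 miR-132-3p peaks (0.563%, 0.352 to 0.900), 24 of miR-137-3p (0.795%, 0.535 to 1.18), 19 of miR-218-5p (0.629%, 0.403 to 0.981) and 1 of miR-132-5p. In the excitatory list there were 5 miR-132-3p peaks (0.710%, 0.304 to 1.65) and 3 of miR-218-5p (0.426%, 0.145 to 1.25). It held no miR-137-3p peak of 704, which allows a share of up to 0.426%. The IgG list had no member peak, with a single peak left in it after the exclusions.

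Shares were compared between lists with 2-sided Fisher's exact tests over all small RNAs with at least 10 peaks in both lists together, adjusted by the Benjamini-Hochberg method. Between the excitatory and the replicates 1-4 list 4.12% of 243 small RNAs passed an adjusted p of 0.05, and none of them was a member. For miR-137-3p in that comparison the unadjusted p was 0.00797 and the adjusted p 0.151. Between replicates 5-7 and replicates 1-4 2.88% of 243 passed, again with no member among them. Between the excitatory and the replicates 5-7 list miR-137-3p was lower (0 of 704 against 24 of 3020, Fisher's exact test, adjusted p = 0.0430), where 35.9% of 39 small RNAs passed. That call was lost when the excluded rRNA peaks were kept (3 of 766 against 37 of 3611, Fisher's exact test, adjusted p = 0.292) and among peaks at or above the median score (adjusted p = 0.361). The 3 miR-137-3p peaks the excitatory list held before the exclusions lay on Gm42418, mt-Rnr1 and mt-Rnr2. For miR-132-3p (0.710% against 0.563%) and miR-218-5p (0.426% against 0.629%) the adjusted p in the same comparison was 0.885 and 1.

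**Figure D1:**
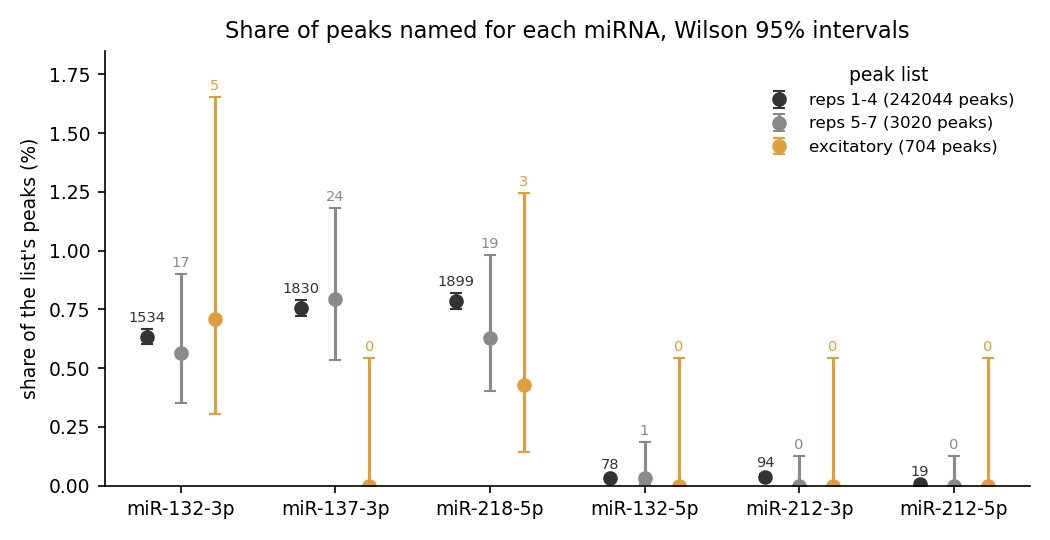
Share of each list's peaks (percent, vertical axis) held by each of the 6 member miRNAs in replicates 1-4, replicates 5-7 and the excitatory list, as points with 95% Wilson intervals and the number of peaks above each. The intervals of the excitatory list (704 peaks) are the widest, and miR-137-3p is at 0 there against 0.795% in replicates 5-7 and 0.756% in replicates 1-4.

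Where on the RNA the peaks lay was compared in replicates 1-4, for each small RNA with at least 50 peaks against the rest of the list (399 Fisher tests over 133 small RNAs and 3 regions, adjusted together). miR-137-3p lay in 3′ UTRs with 31.5% of its peaks (576 of 1830, Wilson interval 29.4 to 33.6) against 18.9% of the rest (adjusted p = 1.55e-36). By the same exact test its CDS share was lower, 13.9% against 23.1% (adjusted p = 4.92e-22). miR-218-5p showed the same directions with smaller differences: 24.96% against 18.9% in 3′ UTRs (adjusted p = 2.94e-10) and 20.2% against 23.0% in CDS (adjusted p = 0.00511). For miR-132-3p the 3′ UTR share was 22.5% against 18.96% (Fisher's exact test, adjusted p = 0.000898) and the CDS share 24.5% against 23.0% (adjusted p = 0.190). A higher 3′ UTR share was the common case, called for 63.2% of the 133 small RNAs, whereas a lower CDS share was called for 18.8% of them. miR-137-3p ranked 46th and miR-218-5p 73rd of 133 by 3′ UTR share, so neither stood at the top, while miR-137-3p ranked 119th by CDS share.

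Much of the rest consisted of miR-124-3p, and the comparison turned on it for some values. Without miR-124-3p in the rest, the miR-132-3p 3′ UTR difference fell from 3.53 to 1.61 percentage points and was no longer called. With 1 peak counted per miRNA, gene and region it turned to -0.764. Intron shares were 43.3% (miR-132-3p), 44.7% (miR-137-3p) and 46.0% (miR-218-5p) against 48.4% of the rest, and all 3 were called lower (Fisher's exact test, adjusted p = 0.000105, 0.00240 and 0.0455), as were 78.2% of small RNAs. Each of these intron differences changed sign without miR-124-3p in the rest or with 1 peak counted per miRNA, gene and region, so no direction is given for them.

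Between the families, 77.8% of the 9 comparisons (3 pairs, 3 regions) passed an adjusted p of 0.05. Overlapping miR-132-3p and miR-212-3p peaks, 56 pairs in all, entered their family as separate peaks. The CDS held 25.3% of miR-132/miR-212 peaks, 20.2% of miR-218 peaks and 13.9% of miR-137 peaks. By Fisher's exact test miR-137 was lower than miR-132/miR-212 (adjusted p = 6.24e-17) and lower than miR-218 (adjusted p = 1.23e-06) in the CDS. In 3′ UTRs miR-137 was higher by the same exact test, with 31.5% for miR-137 against 24.2% for miR-132/miR-212 (adjusted p = 4.11e-06) and 24.96% for miR-218 (adjusted p = 2.34e-05). miR-132/miR-212 and miR-218 differed by -0.787 percentage points in 3′ UTR share (adjusted p = 0.589), and among peaks at or above the median score miR-132/miR-212 was lower by a called difference (-5.28 percentage points). With 1 peak per miRNA, gene and region, 4 of the 9 comparisons passed, those of miR-137 in CDS and 3′ UTRs.

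**Figure D2:**
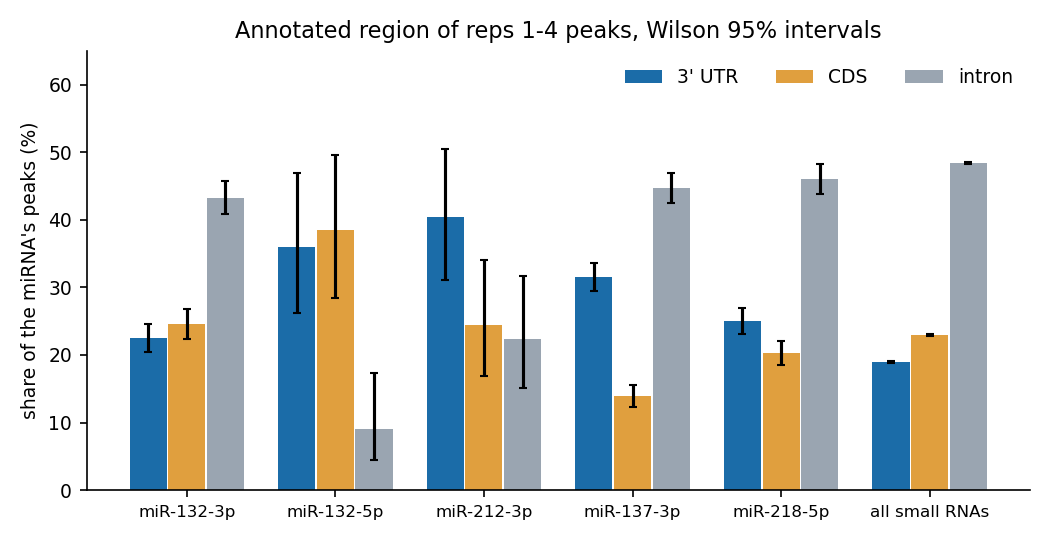
Percent of replicates 1-4 peaks that lay in 3′ UTRs, CDS and introns (bars, with 95% Wilson intervals), for the 5 member miRNAs with at least 50 peaks and for all small RNAs. miR-137-3p has 31.5% of its peaks in 3′ UTRs and 13.9% in CDS, against 22.5% and 24.5% for miR-132-3p.

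Region also went with score. Among peaks at the minimum score of 3, 3′ UTRs held 15% of miR-132-3p, 19.6% of miR-137-3p and 14.1% of miR-218-5p peaks. Among peaks of score 10 or more they held 42.3%, 61.7% and 55.2%, against 31.7% for all small RNAs. Introns went the opposite way, down to 13.4% of miR-132-3p and 5.73% of miR-137-3p peaks at score 10 or more. The intron share over all small RNAs fell too, from 59.7% at score 3 to 17.2% at score 10 or more. The strongest peaks of all 3 families were thus mostly exonic, and the intronic ones mostly weak. Intronic peaks numbered 694, 818 and 873 for miR-132/miR-212, miR-137 and miR-218, with a median score of 3 in each family.

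Within annotated 3′ UTR features miR-137-3p peaks lay late. The median position was 58.8% of the feature's length, the latest of the 77 small RNAs with at least 50 3′ UTR peaks. The last of 5 equal stretches of the feature held 29.2% of its 576 peaks (25.6 to 33.0) against 20.8% for all small RNAs. miR-132-3p had a median position of 49.5% and miR-218-5p of 47.5%, against 46.9% over all small RNAs. These positions are a description with no test, and the annotated feature need not be the 3′ UTR form used in forebrain.

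**Figure D3:**
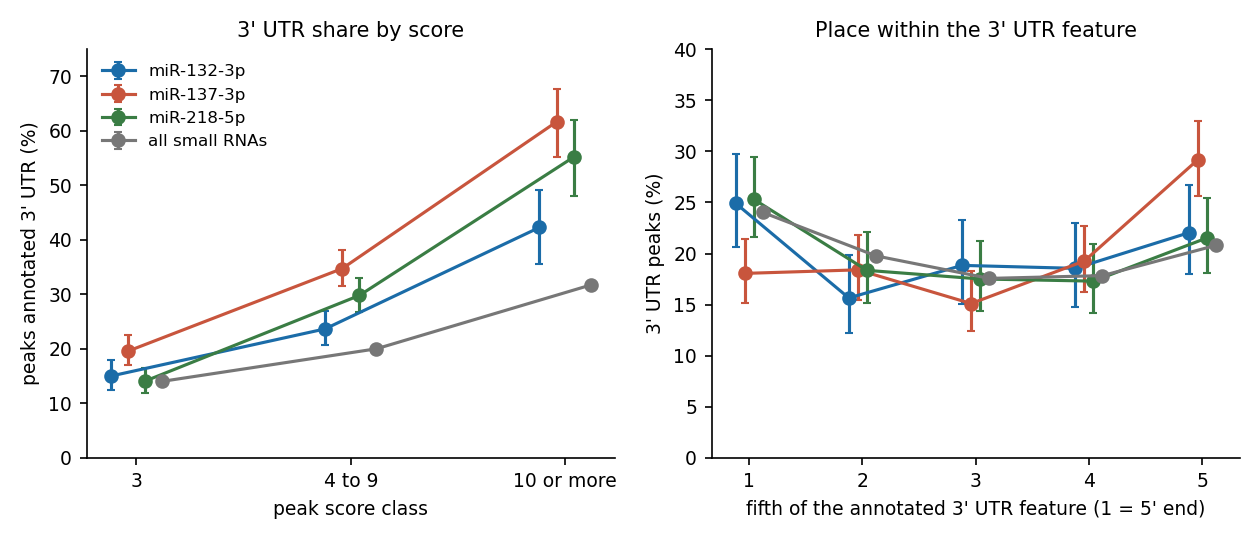
Share of peaks in 3′ UTRs by score class, and share of 3′ UTR peaks along 5 equal stretches of the annotated feature, for miR-132-3p, miR-137-3p, miR-218-5p and all small RNAs, with 95% Wilson intervals. The 3′ UTR share of miR-137-3p goes from 19.6% at score 3 to 61.7% at score 10 or more, and its last stretch holds 29.2%.

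Among the strong miR-132/miR-212 peaks were miR-132-3p peaks in the 3′ UTR of Olfm1, which encodes a secreted brain glycoprotein (chr2:28230011-28230027, plus strand, score 122), and in the CDS of Syt1, which encodes the calcium sensor of synaptic vesicle release (chr10:108583923-108583941, minus strand, score 110). Other small RNA names with a peak at these places numbered 6 (Olfm1) and 7 (Syt1). Nrep, a gene of neuronal regeneration, had a 3′ UTR peak of 106, and Plcxd2, a phospholipase-like gene, a 3′ UTR peak of 82. Fam73a followed with 69 in its 3′ UTR and Camk1d, a calcium/calmodulin-dependent kinase gene, with 65 in an intron. Olfm1, Nrep, Plcxd2 and Fam73a had a miR-132-3p peak in replicates 5-7 too, with scores of 6, 4, 3 and 6.

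By number of peaks in CDS and UTRs, Camk2a, the calcium/calmodulin-dependent kinase of excitatory synapses, came first with 12 miR-132/miR-212 peaks, all in its CDS and none above a score of 35. These were 2.59% of the 464 peaks that all small RNAs had there. Sptbn1, a spectrin of the membrane skeleton, had 8, of which 7 were in the CDS. The glutamate transporter gene Slc1a2 had 8, all in the 3′ UTR and none above a score of 14. Ndrg4 had 6, the calcium pump gene Atp2b1 had 5, and March6, Atp2a2, Camk2n1 and Actb had 4 each. These family counts take overlapping miR-132-3p and miR-212-3p peaks as separate peaks, as on Camk2a, Slc1a2, Ndrg4, Atp2b1, March6 and Camk2n1. On March6 each miR-212-3p peak overlapped a miR-132-3p peak, so its 4 peaks mark fewer places. In all, 679 genes had a CDS or UTR peak of the family, 7.02% of the 9672 genes with any such peak, and 547 of them had 1.

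The list of reported miR-132/miR-212 targets held 18 genes with any CDS or UTR peak, and 10 of them (55.6%) had a peak of this family, against 7.02% of all such genes. The same list had 2 genes with a miR-137 peak and 2 with a miR-218 peak. Scores were low: the transcription cofactor gene Btg2 reached 23, and the translation repressor gene Paip2 12 (both 3′ UTR). The 2 Mapt peaks, on the gene of the microtubule protein tau, had scores of 7 and 4 and belonged to miR-132-5p. Ep300, Kdm5a, Sox5, Foxo3 and Itpkb had family peaks with scores from 3 to 6. The list was drawn up with earlier results of these data known, so the share is a description.

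Few miR-132/miR-212 peaks were seen again outside replicates 1-4, but those that were had high scores there. Of the 18 peaks in replicates 5-7, 16 overlapped a replicates 1-4 peak of the same miRNA, as did 4 of 5 in the excitatory list. Read the other way, replicates 5-7 held 7 of the 20 miR-132-3p peaks of score 50 or more and 1 of the 640 of score 3. A miR-132-3p 3′ UTR peak was present in all 3 Ago2 lists on 3 genes: Fam73a, a gene of mitochondrial fusion (scores 69, 6 and 7 in replicates 1-4, replicates 5-7 and excitatory), Olfm1 (122, 6 and 4) and the orphan receptor gene Gpr26 (46, 4 and 3). The other excitatory peaks lay in the CDS of Eef1a1, an elongation factor gene (score 3), and in an intron of Panx3 (score 3). At the Panx3 place 6 small RNAs had peaks in the excitatory list and none in replicates 1-4.

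Many miR-212-3p peaks overlapped miR-132-3p peaks. Of 94, 55 (58.5%, 48.4 to 67.9) overlapped one, while 56 of 1534 miR-132-3p peaks (3.65%) overlapped a miR-212-3p peak. In the 56 overlapping pairs miR-132-3p had the higher score in 48, miR-212-3p in 4, and 4 were equal. With a reciprocal overlap of 50% the share of miR-212-3p was 40.4%. Overlap was not limited to miR-132-3p: small RNAs with another seed overlapped 60 of the 94 miR-212-3p peaks (63.8%), and miR-128-3p alone 28. Names without a matched sequence each counted as another seed. How well chimeric reads tell miR-132-3p and miR-212-3p apart was not tested. miR-212-3p also had more of its peaks in 3′ UTRs (40.4%, 38 peaks) than the rest of the list (18.97%, Fisher's exact test, adjusted p = 3.65e-06). By the same exact test miR-132-5p, with a different seed, had 35.9% of 78 peaks in 3′ UTRs (adjusted p = 0.000647) and 38.5% in CDS (adjusted p = 0.00376). Both differences of miR-132-5p were no longer called with 1 peak per miRNA, gene and region.

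Among 38 other miRNAs with a matched sequence and at least 500 peaks, overlap with miR-132-3p peaks was set against overlap with other peaks. The 38 did not include miR-124-3p, which held 29.8% of the list and overlapped 232 of 1534 miR-132-3p peaks (15.1%). Of the 38, the 3 with the highest overlap ratio all have the bases ACAGU in common with the miR-132-3p seed. Their sequences, with the seed in capitals, show the shared run.
miR-101a-3p: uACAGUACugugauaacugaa
miR-128-3p: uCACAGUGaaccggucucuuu
miR-139-5p: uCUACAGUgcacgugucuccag

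miR-101a-3p peaks overlapped 65 of 1534 miR-132-3p peaks (4.24%) against 1.20% of other peaks, a ratio of 3.52. miR-128-3p overlapped 174 (11.3% against 4.31%, ratio 2.63) and miR-139-5p 24 (1.56% against 0.815%, ratio 1.92). The 23 partners with only 2 seed bases in common with miR-132-3p had a median ratio of 0.886, the 7 with 3 bases 1.23 and the 3 with 4 bases 1.02, so the ratio did not go up step by step with the shared run. Partners with 2 bases in common reached 1.91 (miR-9-3p) and 1.67 (miR-129-2-3p), the first almost the ratio of miR-139-5p. At single strong miR-132-3p peaks, miR-128-3p peaks of score 3, 4, 5 and 4 overlapped those of Syt1, Nrep, Plcxd2 and Camk1d. Partners without the whole ACAGU run scored higher at Syt1 (miR-34a-5p, 15), Nrep (miR-9-5p, 13) and Plcxd2 (miR-9-3p, 7). At the Olfm1 peak no partner with the run was seen. For miR-137-3p the highest ratio was 2.20, with miR-153-3p, and for miR-218-5p 1.39, with miR-221-3p. Each of those partners shares 3 seed bases with it. The points share libraries and depth, so no test was made.

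**Figure D4:**
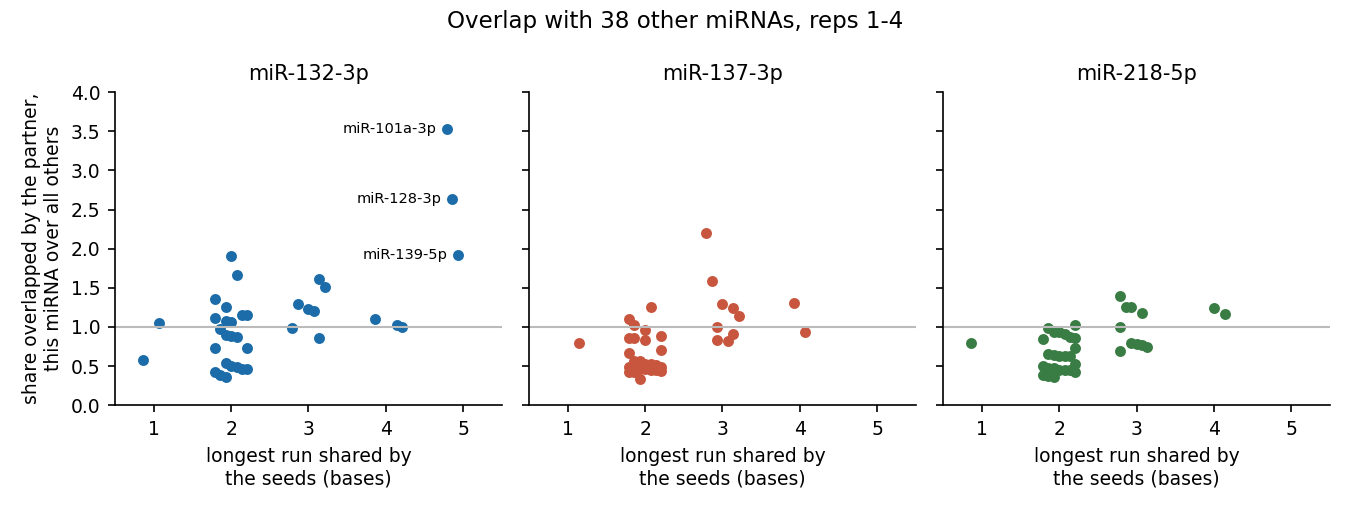
Overlap ratio of each of 38 other miRNAs with the peaks of miR-132-3p, miR-137-3p and miR-218-5p (percent of the member's peaks overlapped, divided by the percent of other peaks overlapped), by the longest run of bases shared by the seeds. Points are spread sideways for legibility and the grey line marks a ratio of 1. For miR-132-3p the 3 partners that share 5 bases have a median ratio of 2.63.

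The strongest miR-137 peak was in the 3′ UTR of Adcy1, a calcium-stimulated adenylyl cyclase (chr11:7173315-7173329, plus strand, score 213), where 9 other small RNA names also had a peak. mt-Nd2, a mitochondrial gene for a subunit of respiratory complex I, followed with CDS peaks of 141 and 88, at places of 11 and 8 other names. Herc2, a ubiquitin ligase gene, had a CDS peak of 94, and Cend1, a gene of neuronal cell cycle exit, a 3′ UTR peak of 89. The calcium release channel gene Itpr1 (CDS) had 69, and Dclk1, a microtubule-binding kinase gene, and Serpini1, which encodes neuroserpin, had 64 each in 3′ UTRs. Mitochondrial CDS held 22 miR-137-3p peaks with a summed score of 456, against 5 peaks (38) of miR-132/miR-212 and 14 (332) of miR-218, out of 1179 for all small RNAs. Before the exclusions, mitochondrial rRNA and Gm42418 peaks carried 47.3% of the summed score of miR-137-3p, against 20.9% over all small RNAs.

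By number, mt-Nd5 had 7 miR-137 peaks, Strbp, which encodes an RNA-binding protein, 6, and mt-Nd2 and Tcf4 5 each. Kcna2, a potassium channel gene, had 4 peaks, all in its 3′ UTR, with a summed score of 113. Slc12a5, the neuronal chloride transporter gene, also had 4, all in the 3′ UTR. Itpr1 and March6 had 4 each, and Adcy1 and Herc2 had 3 each. The family reached 690 genes through CDS or UTR (7.13% of 9672), of which 583 had 1 peak.

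The list of reported miR-137 targets had 20 genes with any CDS or UTR peak, and 11 of them (55.0%) had a miR-137 peak, all with a 3′ UTR peak, against 7.13% of all genes. miR-132/miR-212 peaks were on 4 of these genes and miR-218 peaks on 5. Tcf4, a transcription factor gene, had 5 peaks with a summed score of 114. Among genes of vesicle release, Syt1 had a peak of 48, Nsf of 22 and Cplx1 of 11. Mib1, Wbp1l and Gsk3b had peaks of 21, 19 and 12, while Rora had 3 peaks of at most 6. Csmd1, Gria1 and Mitf had the remaining peaks. The share is a description, as for miR-132/miR-212.

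miR-137-3p peaks in replicates 5-7 lay mostly in 3′ UTRs and nearly all were known from replicates 1-4, with 23 of 24 (95.8%) overlapping. The Adcy1 peak recurred with a score of 5, as did Purb (5), Setd7 (5) and mt-Nd2 (5), followed by Dclk1, Syt1, Shroom2, Ppp1cb and AI593442 with 4 each. The AI593442 peak was the only one that did not overlap. Of the 17 miR-137-3p peaks of score 50 or more in replicates 1-4, 6 were found in replicates 5-7, against 2 of 806 of score 4 to 9. No gene had a miR-137 peak in all 3 Ago2 lists.

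**Figure D5:**
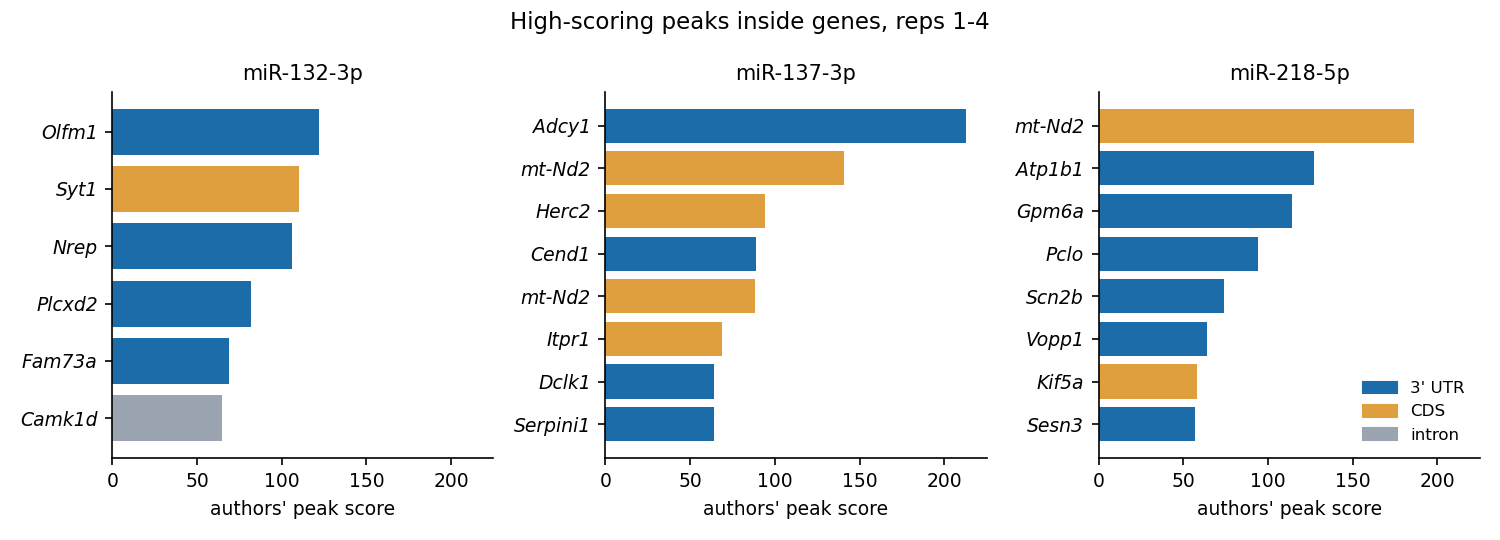
The authors' scores (horizontal axis) of selected high peaks inside genes of miR-132-3p, miR-137-3p and miR-218-5p in replicates 1-4, 1 bar per peak, coloured by region (3′ UTR, CDS, intron). The longest bars are 122 (Olfm1, miR-132-3p), 213 (Adcy1, miR-137-3p) and 186 (mt-Nd2, miR-218-5p).

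miR-218-5p had its strongest peak in the CDS of mt-Nd2 (score 186), and the next were in 3′ UTRs. Atp1b1, a subunit of the sodium pump, had 127 (chr1:164438263-164438278, minus strand), Gpm6a, a neuronal membrane glycoprotein gene, 114, Pclo, a gene of the presynaptic active zone, 94, and Scn2b, a sodium channel subunit gene, 74. Other small RNA names with a peak at the same place numbered 14 at mt-Nd2, 1 at Atp1b1, 5 at Gpm6a and 0 at Pclo and Scn2b. Vopp1 (64), Sesn3 (57), Slc1a2 (54) and Shank2 (53) were also in 3′ UTRs, and Kif5a, a kinesin gene, had 58 in the CDS.

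Slc1a2 had the most CDS and UTR peaks of miR-218, 7 and all in the 3′ UTR, with a summed score of 115. mt-Nd2 and Camk2a had 5 each. Pclo (4, all 3′ UTR), the scaffold gene Dlg2, the transcription factor gene Hivep2 and Apc had 4 each, and Kif5a, Nav3 and mt-Nd4 had 3 each. In all, 717 genes (7.41% of 9672) had a CDS or UTR peak, and 600 of them had 1. Of the 18 reported miR-218 targets with any peak, 7 (38.9%) had a miR-218 peak, against 7.41% of all genes. They included Slc1a2, Glce (a heparan sulphate enzyme gene, top score 30), the axon guidance receptor genes Robo2 (37) and Robo1 (12), Gria2 (10) and Rictor (6), and all 7 had a 3′ UTR peak. miR-132/miR-212 peaks were on 6 of these 18 genes and miR-137 peaks on 5, so the count for miR-218 was close to those of the other families.

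Of the 19 miR-218-5p peaks in replicates 5-7, 16 overlapped a replicates 1-4 peak of the same miRNA. Of the 16 peaks of score 50 or more in replicates 1-4, 10 (62.5%, 38.6 to 81.5) were found in replicates 5-7, against 1 of 895 of score 3. The scores in replicates 5-7 were 8 for mt-Nd2, 7 for Atp1b1 and Gpm6a, and 5 for Sesn3, Shank2, Adam23 and Zbtb11. The 3 excitatory peaks lay in the 3′ UTRs of Impact (score 4), a regulator of translation, and Cacnb4 (3), a calcium channel subunit gene, and in an intron of Trim9 (3), a brain ubiquitin ligase gene. All 3 overlapped a miR-218-5p peak of replicates 1-4, where the scores were 28, 18 and 30. Over the 3 families, 55 of 61 peaks of replicates 5-7 (90.2%) and 7 of 8 excitatory peaks (87.5%) overlapped one of the same miRNA, against 88.9% and 94.2% over all small RNAs.

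Another miR-218-5p peak lay in the window around a start site of Ank2, where the deposited annotation gives an intron (chr3:126943420-126943434, minus strand, score 25). It is shown because its sequence holds, in capitals, the 6 bases that pair with positions 2 to 7 of miR-218-5p.
Ank2 peak: ugucauAGCACAguu

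The 7-base site, AAGCACA, was not in this window. Ank2 encodes an ankyrin of the axonal membrane skeleton. The only other member peak in such a window, a miR-132-3p peak of score 8 in the 5′ UTR of Ppt1, held neither GACUGUU nor ACUGUU. Target sequences elsewhere were not analysed here.

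The 3 families met on 59 genes with CDS or UTR peaks of each, of which 25 had 3′ UTR peaks of all 3. Camk2a had the most (12 miR-132/miR-212, 2 miR-137 and 5 miR-218 peaks), followed by Slc1a2 (8, 2 and 7). These genes also had many peaks of all small RNAs, 464 and 511. miR-132/miR-212 and miR-137 shared 147 genes (21.6% of the former's and 21.3% of the latter's), miR-132/miR-212 and miR-218 shared 133 (19.6% and 18.5%), and miR-137 and miR-218 shared 163 (23.6% and 22.7%). Within 3′ UTRs, peaks of different families lay within 50 bases of each other in 36 pairs on 24 genes, and 19 pairs overlapped. Overlapping miR-132-3p and miR-212-3p peaks gave separate pairs, as on Kcna2 and Fam3c. Overlap was common in 3′ UTRs: small RNAs counted as having another seed overlapped 44.02% of the 3′ UTR peaks of all small RNAs. Names without a matched sequence each counted as a seed of their own, so some of these overlaps may join small RNAs with the same seed. If these families met more often than other small RNAs was not tested. In the Kcna2 3′ UTR a miR-132-3p peak of score 14 overlapped miR-137-3p peaks of scores 49 and 57, and in Fam3c a miR-132-3p peak of 25 overlapped a miR-137-3p peak of 42. Each of these Kcna2 and Fam3c peaks was overlapped by peaks of 3 to 5 other seeds, counted in the same way.

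Other gene lists, drawn up with earlier results known, are given by counts beside the 7.02%, 7.13% and 7.41% of all genes. Of 24 vesicle release genes, 8 had a miR-132/miR-212 peak, 9 a miR-137 peak and 11 a miR-218 peak, with Syt1 (summed score 130) and Unc13a (21) leading for miR-132/miR-212, Bsn (57) and Syt1 (51) for miR-137, and Pclo (120) for miR-218. Of 16 GABA genes the counts were 5, 7 and 3. Of 22 potassium channel genes they were 4, 5 and 7, of 19 glutamate receptor genes 3, 4 and 3, and of 25 axon guidance genes 2, 5 and 4, with Epha7 (summed score 68) leading for miR-137. Of 26 small GTPase regulator genes they were 5, 6 and 9, of 25 chromatin regulator genes 6, 3 and 5, and of 16 activity-regulated genes 3, 1 and 1. Syt1 carried 201 peaks of all small RNAs, Bsn 210 and Pclo 126, and the part of such totals in the counts was not tested.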

How the data were processed

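The deposited files are peak lists of chimeric reads, 1 for each pool of libraries. Per the calling summaries, a peak needed 3 or more reads from 2 or more libraries in the authors' calling on mm10, with peaks not merged by miRNA family. The submitters' processing notes also name mm10. Peak caller and aligner: not given in the sources used here. Each peak's score is the authors' own, as deposited, and was used only to rank and filter peaks within a list.

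Peaks were selected by small RNA name and without mitochondrial rRNA and Gm42418. Scripts ran in Python 3.11.15 with numpy 2.4.6, pandas 2.3.3, scipy 1.17.1 and matplotlib 3.10.9. Shares have 95% Wilson intervals, and a count of 0 of n allows up to 3 counts. Shares and regions were compared with Fisher's exact tests, 2-sided, with Benjamini-Hochberg adjustment at 0.05, over small RNAs with at least 10 peaks (shares) or 50 peaks (regions). Overlap means at least 1 shared base on the same strand. The tests were tested on simulated data. Named genes are, per family, the 10 with the most CDS and UTR peaks, the 5 highest peaks, genes recurring in all 3 Ago2 lists, peaks of the small lists and members of the target lists; further peaks and genes were named after their values were seen.

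The members and gene lists were chosen with earlier results of these data known. A planned test of seed matches in peaks was not run because no genome of the build was used here. Alternatives were all peaks, peaks at or above the median score, CDS and UTR peaks alone, 1 peak per gene, other overlap rules, the larger list reduced, and 2 chosen after seeing the data (the rest without miR-124-3p, and no peaks within the neighbourhood of Gm42418). Results on some genes that the rule would name are not reported here.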

Additional observations from a re-analysis of the deposited data

Results flagged for a closer look

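Member peaks on mitochondrial rRNA and Gm42418, which the comparisons did not use, were present in the Ago2 lists, whereas the IgG list had none of a member. Of the 10 peaks in the IgG list 9 lay on these same RNAs, joined to other small RNAs, so such peaks also arise in the control. In replicates 1-4 there were 34 such miR-132-3p peaks, 43 of miR-137-3p and 36 of miR-218-5p. In replicates 5-7 there were 4, 13 and 5, and in the excitatory list 1, 3 and 1, in the same order. The highest miR-137-3p scores there were 2079 on Gm42418, 1827 on mt-Rnr1 and 1207 on mt-Rnr2, against 213 for its highest kept peak. They carried 47.3% of the summed miR-137-3p score in replicates 1-4 and 76.6% in replicates 5-7, where the values over all small RNAs were 20.9% and 49.5%. With 10 IgG peaks the contrast has little depth.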

How the results depend on the processing

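Of 250 alternative values over 80 results, 199 were held to be unchanged. They kept their direction and their side of the threshold, stayed within counting error or, for counts, changed by a modest factor. For instance, member region calls against the rest went from 13 to 10 at or above the median score. These include the values with merged sites, a setting that could not change them. Also among the 199 was the count of members called, excitatory against replicates 1-4, with the larger list reduced. No member had enough peaks for the share test there, so that count could not change. The miR-137-3p and miR-218-5p differences from the rest in 3′ UTRs and CDS, and those of miR-137 from both other families there, kept direction and call under every alternative run.

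Differences in share between lists are given in percentage points. For miR-132-3p, excitatory against replicates 1-4, 0.0765 turned to -0.0940 at or above the median score and -0.0235 with CDS and UTR peaks alone. For miR-132-5p, replicates 5-7 against 1-4, 0.000887 turned to -0.00927 with all peaks, -0.0335 at or above the median score, -0.0568 with CDS and UTR peaks alone and -0.0303 also without peaks near Gm42418. For miR-137-3p there, 0.0386 turned to -0.139 at or above the median score. For miR-218-5p there, -0.155 turned to 0.0993 with the larger list cut down to as many top peaks as the smaller one. None of these was called under any setting. Excitatory against replicates 5-7, the 1 member called became 0 with all peaks and at or above the median score. There miR-137-3p went from -0.795 to -0.633 with all peaks and -0.582 at or above the median score. With the larger list reduced, miR-137-3p had too few peaks for the share test, so that setting cannot show if its call holds.

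Region differences are in percentage points too. At or above the median score, the miR-132/miR-212 intron differences were -0.281 from miR-137 and -2.09 from miR-218, both no longer called, and the 3′ UTR difference from miR-218 was -5.28, now called. With 1 peak per miRNA, gene and region, the family differences called numbered 4 in place of 7. miR-132/miR-212 introns then turned to 2.39 (against miR-137) and 1.63 (against miR-218), and its CDS difference from miR-218 was 1.98, not called. The differences from the rest were then -0.764, -3.84 and 9.29 for miR-132-3p (3′ UTR, CDS, intron), 7.54 and 6.43 for miR-132-5p (3′ UTR, CDS, not called), -8.75 and -3.33 for miR-212-3p (CDS, intron), 4.34 for miR-137-3p introns and 5.11 for miR-218-5p introns. Without miR-124-3p in the rest they were 1.61, -1.80 and 0.408 for miR-132-3p, -1.82 for miR-212-3p CDS, 1.84 for miR-137-3p introns and 3.12 for miR-218-5p introns. The cause was not tested.

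With a reciprocal overlap of 50%, 55.7% of the replicates 5-7 member peaks were found again, 40.4% of miR-212-3p peaks overlapped miR-132-3p and 2.48% the reverse. At or above the median score of both lists, 96.3% (replicates 5-7) and 100% (excitatory) were found again. The lists held no overlapping peaks of 1 miRNA, so merging sites changed nothing.

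No paired analysis was possible because the libraries were pooled before peak calling, so no list has a value per replicate. Leaving out a replicate was not possible for the same reason, and the planned seed tests were not run. The excitatory list limits statements about it to shares above its 0-count limit of 0.426%.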

Other observations

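Member miRNAs also had peaks on other miRNAs. A miR-212-5p peak of score 3 covered exactly the mature miR-132-3p sequence printed above, whose hairpin lies beside its own. The highest such score was 12, for miR-137-3p on the Mir1298 hairpin. The others described here had scores of 3 (miR-132-5p on miR-128-3p, miR-137-3p on miR-342-3p and miR-218-5p on miR-29a-3p). The account is not full, as miR-137-3p had 3 peaks annotated to miRNA genes in replicates 1-4. None of the 5 peaks described held the 7-base seed match. The Mir1298 peak held the 6 bases that pair with positions 2 to 7 of miR-137-3p.

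The strongest intergenic member peaks fell where very many small RNAs had peaks: at a chromosome 17 place near Gm42418, miR-132-3p (score 102), miR-137-3p (88) and miR-218-5p (64) stood beside 261, 267 and 260 other small RNA names. Among the 15 highest intergenic peaks, those without any other small RNA were a miR-137-3p peak of score 71 on chromosome 1, a miR-218-5p peak of score 54 on chromosome 13 and a miR-132-3p peak of score 46 on chromosome 5.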
